A study of Canis lupus familiaris with 18 samples.

Results

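The ERBB family of receptor tyrosine kinases and its ligands was examined in high grade oligodendroglioma (HGO) of dogs. The members were chosen by name, as 4 receptors (EGFR, ERBB2, ERBB3, ERBB4) and 6 ligands (EGF, TGFA, HBEGF, NRG1, NRG2, NRG3). The choice did not use their measured values, although earlier results of these data were known when it was made. Of these 10 genes, 9 were found by symbol among the 29993 genes of the count table, and TGFA was not analysed here. Their Ensembl identifiers were ENSCAFG00000003465 for EGFR, ENSCAFG00000016351 for ERBB2, ENSCAFG00000000097 for ERBB3 and ENSCAFG00000023258 for ERBB4. The ligands were ENSCAFG00000005749 for HBEGF, ENSCAFG00000006371 for NRG1, ENSCAFG00000005731 for NRG2, ENSCAFG00000015883 for NRG3 and ENSCAFG00000011532 for EGF.

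The 18 libraries came from bulk RNA sequencing of formalin-fixed, paraffin-embedded forebrain tumors that had been surgically resected from pet dogs. The labels give breed and tissue but no treatment, age or genotype, and per the study's text the tumors were removed before trial treatment began and breed was as declared by owners. The French bulldog group held 11 libraries and the comparison group held 7, of which 4 came from boxers and 3 from Boston terriers. The label of French bulldog 2 shares a case number with that of French bulldog 8, so these libraries may not be 2 independent dogs. Their log2 CPM had the highest correlation of any library pair (Pearson's r = 0.981). The study's text lists French bulldogs 2 and 8 with the same age, sex and tumor location. Results count them as 2 libraries except where they are said to be summed. Per the study's text, the groups were not matched for age, sex or tumor location, and these were not fitted here.

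The receptors of this family sit in the cell membrane, pair with themselves or with each other when a ligand binds, and phosphorylate tyrosines that recruit the RAS-ERK and PI3K-AKT pathways. EGF, TGFA and HBEGF bind EGFR, HBEGF also binds ERBB4, and the neuregulins bind ERBB3 or ERBB4. ERBB2 has no known soluble ligand and ERBB3 has little kinase activity of its own, so both work mainly as partners. In the brain, neuregulins are made largely by neurons, ERBB3 is known from the oligodendrocyte lineage and ERBB4 from interneurons, and EGFR marks glial progenitors and is often amplified in human glioblastoma.

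Each library held between 8212452 and 13169880 counts, so that 3 counts, taken as the smallest level the depth could show, stood for 0.228 to 0.365 CPM (counts scaled to a common library total) before normalization. French bulldog 6 stood apart. Its 8 oligodendrocyte lineage markers summed to 44.0 CPM against 1484 to 7105 CPM in the other French bulldogs and 2272 to 4147 CPM in the comparison group, and OLIG2, a defining gene of the tumor's lineage, was at 0 counts there against 1137 to 3371 counts in the other libraries. NKX2-2, S100B, GAD1 and NEFM were also at 0 counts in French bulldog 6. Its macrophage and microglia markers summed to 8185 CPM against 61.3 to 413 CPM in the other French bulldogs and 99.2 to 199 CPM in the comparison group. Its T cell markers summed to 142 CPM, against at most 16.1 CPM in the other French bulldogs and 47.2 CPM in the comparison group. French bulldog 11 had the lowest lineage marker sum of the other 17 libraries. Of the remaining marker genes, CD3D, CD3E, CD3G and CD8A of T cells and KRT18 were at 0 counts in 15, 4, 7, 11 and 13 libraries, and KRT14 in boxer 5.

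**Figure D1:**
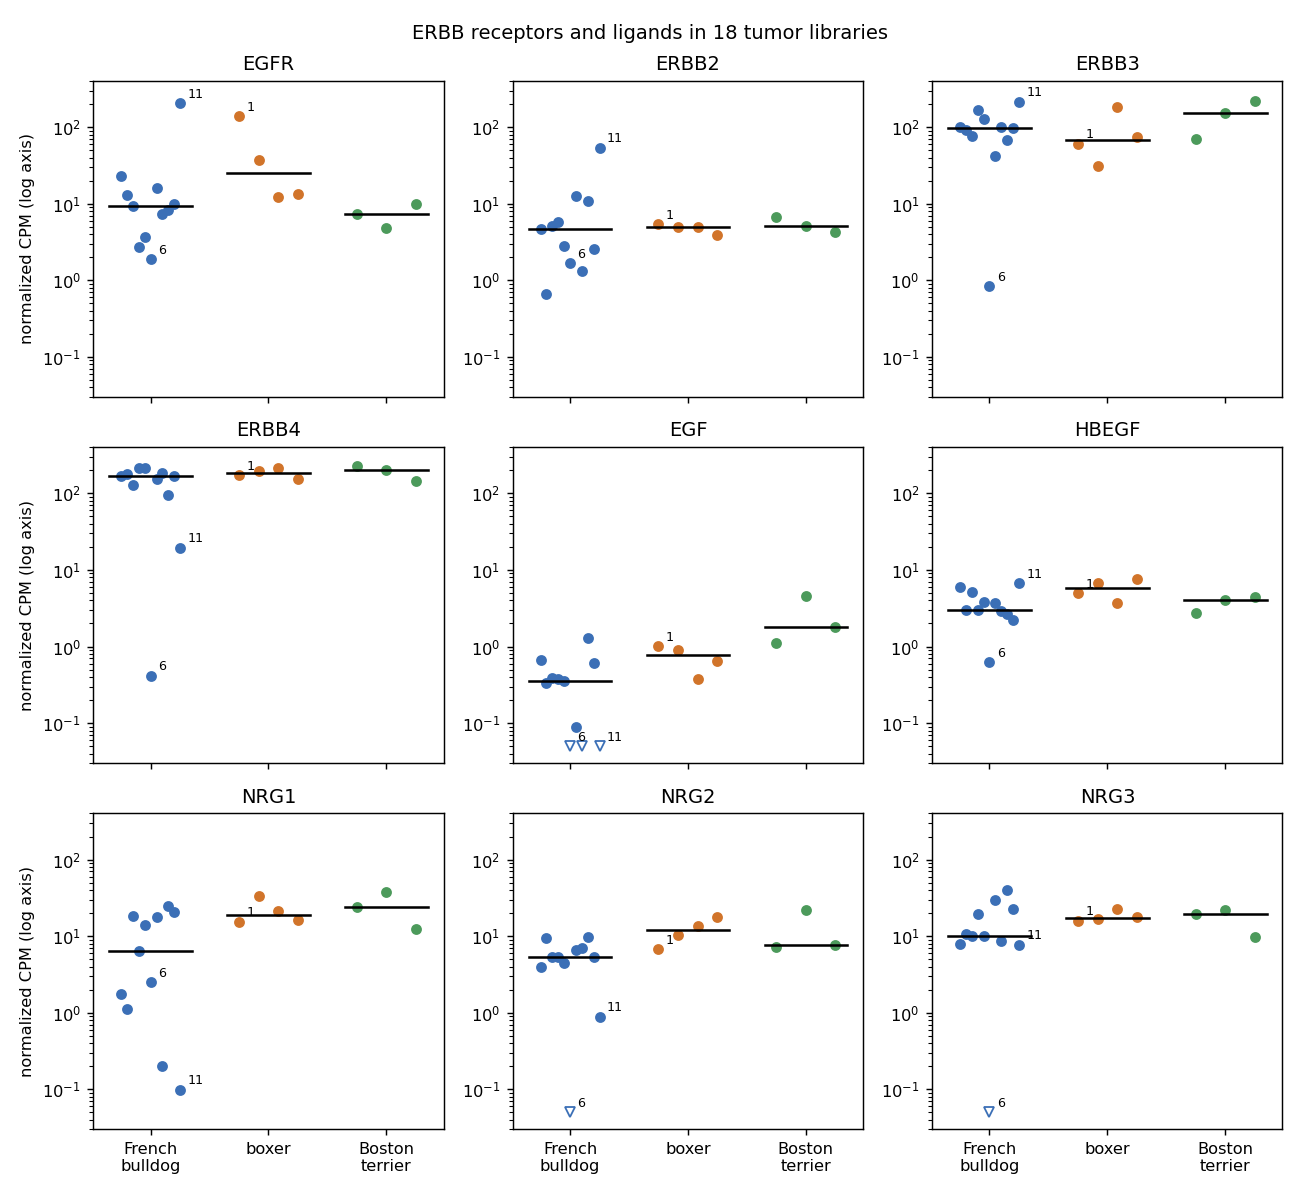
Normalized CPM of the 9 members on a log axis in each of 18 libraries, by breed; points are libraries, black lines are medians, and open triangles at the bottom of a panel are libraries with 0 counts. French bulldogs 6 and 11 and boxer 1 carry their numbers. EGFR reached 204 CPM in French bulldog 11 and 138 CPM in boxer 1. French bulldog 6 was the lowest library for EGFR, ERBB3, ERBB4, HBEGF, NRG2 and NRG3.

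EGFR, the receptor of EGF, TGFA and HBEGF, had the largest fitted variation between libraries of the 8 members tested. In French bulldogs its normalized level was 1.87 CPM at the lowest, in French bulldog 6, 9.47 CPM at the median and 204 CPM at the highest. The boxers had 138, 37.1, 12.1 and 13.4 CPM, and the Boston terriers had 7.24, 4.85 and 9.85 CPM. A pair of libraries lay far above the rest, French bulldog 11 with 2055 counts and boxer 1 with 1378 counts, one in each group of the main contrast, and the groups overlapped. French bulldog 11 alone held 68.1% of the CPM summed over the French bulldogs, and boxer 1 held 62.0% of that in the comparison group.

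The mean level of EGFR was 27.2 ± 58.9 CPM in French bulldogs (SD, n = 11) and 31.8 ± 48.1 CPM in the comparison group (SD, n = 7). The fitted log2 fold change, French bulldogs minus comparison group, was -0.23 (SE 0.90, 95% interval -2.11 to 1.66), and the adjusted p-value was 0.958 (edgeR's quasi-likelihood test, Benjamini-Hochberg adjustment over 16495 genes). Its biological coefficient of variation in that fit, 118%, was higher than that of 97.0% of the genes tested. The direction rested on single libraries. Without French bulldog 11 the log2 fold change was -1.73, and without boxer 1 it was 0.95, with adjusted p-values of 0.433 and 0.769 by the same test. Without French bulldogs 6 and 11 it was -1.56 (95% interval -2.88 to -0.24), with an unadjusted p-value of 0.0233 and an adjusted p-value of 0.407 by the same test. That setting was chosen after seeing the data. It left out the highest French bulldog but kept boxer 1, the highest comparison library, so the interval says nothing on a breed difference. DESeq2 gave a log2 fold change of -1.68 (adjusted p = 0.190, DESeq2 Wald test), and in that fit the count of 2055 in French bulldog 11 had been replaced by 111 through the tool's default treatment of outlying counts. It was the only member count that DESeq2 replaced.

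ERBB2, the receptor without a known soluble ligand, was even in the comparison group and uneven in French bulldogs. The boxers had 5.41, 4.93, 4.96 and 3.89 CPM, and the Boston terriers had 6.68, 5.19 and 4.22 CPM. In French bulldogs the level ran from 0.669 CPM through a median of 4.61 CPM to 53.9 CPM. The range of the comparison group was thus contained in that of the French bulldogs, of which 5 lay below and 3 lay above every comparison library. The highest was again French bulldog 11, with 544 counts, and the lowest were French bulldogs 2 and 8, with 6 and 13 counts, which are the libraries that share a case number. The log2 fold change was 0.88 (SE 0.69, 95% interval -0.56 to 2.32, adjusted p = 0.654, edgeR's quasi-likelihood test with Benjamini-Hochberg adjustment), and it was -0.070 without French bulldog 11. Neither this difference nor that of EGFR exceeded the spread between libraries.

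ERBB3, the neuregulin receptor with little kinase activity, was at 30.8 CPM or more in every library except French bulldog 6. The French bulldogs ranged from 0.833 CPM, in that library, through a median of 96.7 CPM to 215 CPM in French bulldog 11. The boxers had 61.0, 30.8, 184 and 73.7 CPM and the Boston terriers had 70.1, 153 and 220 CPM. The groups overlapped almost throughout, and the log2 fold change was -0.19 (SE 0.56, adjusted p = 0.933, edgeR's quasi-likelihood test with Benjamini-Hochberg adjustment). Leaving out French bulldog 6 left it at -0.042, with a 95% interval of -0.81 to 0.73.

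ERBB4, the neuregulin receptor with an active kinase, was steady outside 2 libraries. It was at 0.417 CPM in French bulldog 6 and 19.6 CPM in French bulldog 11, and between 94.9 and 225 CPM in the other 16. The comparison group ran from 144 CPM through a median of 196 CPM to 225 CPM, and the French bulldog median was 166 CPM. The French bulldogs without 6 and 11 had a mean of 167 ± 37.8 CPM (SD, n = 9) against 187 ± 30.7 CPM (SD, n = 7). The log2 fold change was -0.44 (SE 0.56, 95% interval -1.61 to 0.74) over all libraries and -0.14 (95% interval -0.47 to 0.18) without these 2 libraries, with adjusted p-values of 0.810 and 0.769 (edgeR's quasi-likelihood test, Benjamini-Hochberg adjustment). In bulk tissue, fewer cells of a type and less RNA per cell cannot be told apart.

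French bulldog 11 therefore combined the highest EGFR, ERBB2 and HBEGF of its breed with the lowest NRG1 of all libraries, at 1 count, and with the lowest NRG2 and ERBB4 outside French bulldog 6, at 9 and 198 counts. It had the highest ERBB3 of its breed as well. Its fibroblast and pericyte markers summed to 832 CPM, above 16 of the other libraries. Its endothelial markers summed to 531 CPM and its macrophage and microglia markers to 353 CPM, each above 15 libraries, and its myelin and astrocyte markers were each above 14. Its neuron markers summed to 71.8 CPM, above French bulldog 6 alone. Their part in its receptor pattern was not tested.

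**Figure D2:**
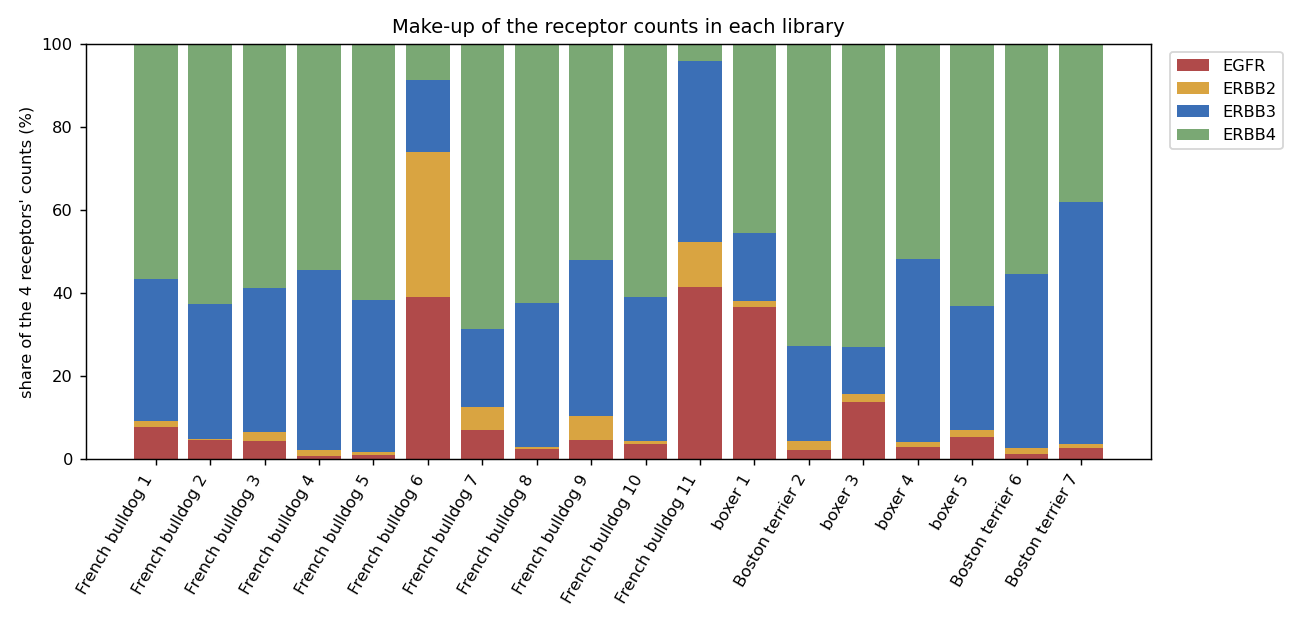
Share of each receptor in the counts summed over EGFR, ERBB2, ERBB3 and ERBB4, in percent, stacked to 100 for each of 18 libraries. ERBB3 and ERBB4 together fill most bars; EGFR takes 41.4% in French bulldog 11, 39.1% in French bulldog 6, which has 46 receptor counts in all, and 36.7% in boxer 1.

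The make-up of the receptor counts within a library, which no scaling between libraries changes, was compared next. The shares are of counts and are not corrected for transcript length, so they were compared between libraries and not between receptors. ERBB4 held 50.1 ± 22.1% of the receptor counts in French bulldogs (SD, n = 11) and 57.1 ± 13.3% in the comparison group (SD, n = 7). ERBB3 held 33.4 ± 8.42% and 32.1 ± 16.8%, and EGFR held 10.6 ± 14.8% and 9.31 ± 12.8%. ERBB2 held 5.91 ± 10.1% and 1.53 ± 0.366%, and its highest share, 34.8% in French bulldog 6, rested on 16 of 46 counts. An exact permutation of group labels, with 31824 arrangements, found no share that differed (two-sided, raw p from 0.290 for ERBB2 to 0.822 for ERBB3, adjusted p = 0.822 for each of the 4 receptors). Boxer 1 had an ERBB4 share of 45.6% and a level of 172 CPM within the range of its group, so that its high EGFR stood beside ERBB4 rather than in place of it. In French bulldog 11 the ERBB4 share was 3.99%.

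The 5 genes on either side of EGFR and ERBB2 in the RefSeq annotation of UU_Cfam_GSD_1.0 were read in these libraries, a choice made after the members' values were seen. That assembly is not the one the reads were counted on and was used for gene order only. EGFR was 20.5 times the median of 16 other libraries (French bulldog 6 left out) in French bulldog 11 and 13.9 times in boxer 1. Its direct neighbours SEC61G and LANCL2 were 1.58 and 1.09 times that median in French bulldog 11, and 1.75 and 1.16 times in boxer 1, where SEC61G was above the 16 other libraries. In French bulldog 11, COBL, STK17A, COA1 and BLVRA were at 4.11, 3.07, 1.83 and 1.82 times the median and above the 16 other libraries, and DDC, VOPP1, GRB10 and SEC61G, at 2.85, 2.38, 1.87 and 1.58 times, were above 15 of them. In boxer 1 STK17A was at 2.13 times. ERBB2 was 10.9 times the median in French bulldog 11, where its direct neighbours MIEN1 and PGAP3 were at 1.27 and 0.963 times. TCAP was at 1.72 times and STARD3, above 15 of the 16 libraries, at 1.43 times. GRB7, an adaptor that binds ERBB2 and is encoded beside it, was near or below the limit of the depth throughout, at 0 counts in that library and at most 0.712 CPM in the others compared. These are values of single libraries and have no replicate check.

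**Figure D3:**
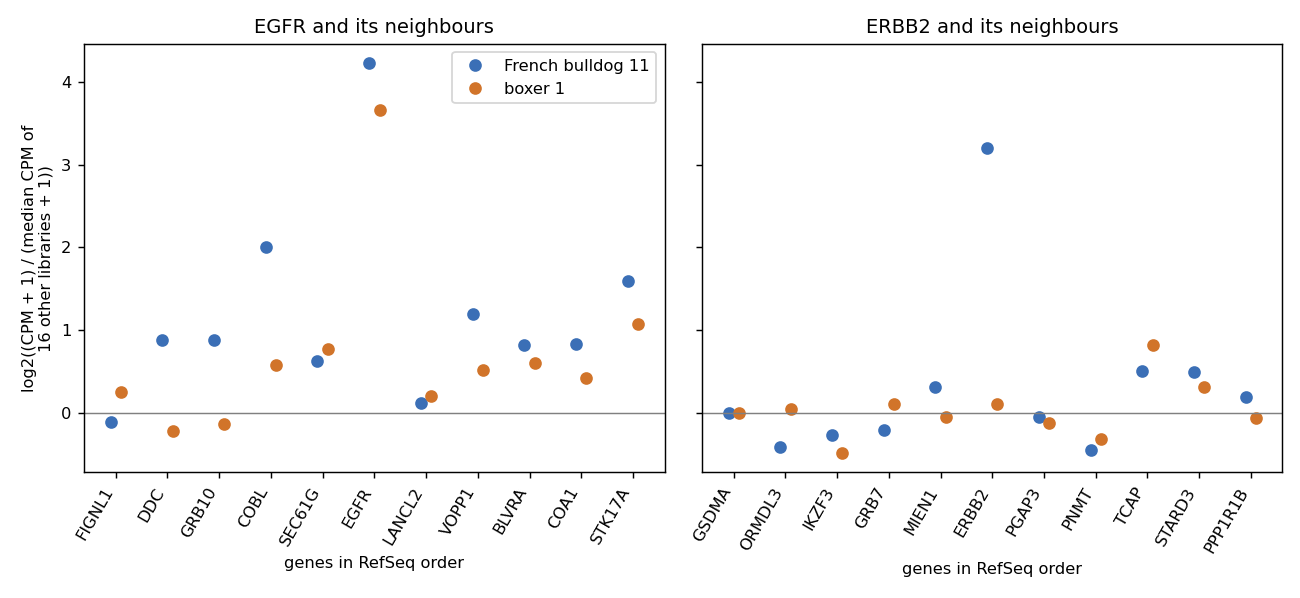
Level of EGFR, ERBB2 and the 5 counted protein-coding genes on either side, in RefSeq order, in French bulldog 11 and boxer 1, as log2 of CPM + 1 over the median CPM + 1 of 16 other libraries (French bulldog 6 left out); each point is 1 library. EGFR stands at 4.22 and 3.67, ERBB2 at 3.21 in French bulldog 11 and 0.11 in boxer 1, and no neighbour exceeds the 2.01 of COBL.

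Among the ligands of EGFR, EGF was close to the limit of the depth. French bulldogs had a median of 3 counts and a range of 0 to 17, with 0 counts in French bulldogs 6, 8 and 11, which allows up to 0.325 CPM before scaling in the shallowest of these. The boxers had 10, 10, 4 and 6 counts and the Boston terriers had 12, 54 and 22 counts. Of the 11 French bulldogs, 10 lay below the median of the comparison group, and 7 lay below every comparison library. EGF did not pass the low-count filter of the 2-group fit. With all genes kept, EGF had a log2 fold change of -1.90 (SE 0.70, 95% interval -3.35 to -0.45) with an unadjusted p-value of 0.0126 and an adjusted p-value of 0.420 (edgeR's quasi-likelihood test, Benjamini-Hochberg adjustment), so it was not called.

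HBEGF, a membrane-anchored ligand that is released by shedding, was at 7.56 CPM or less in every library. The French bulldogs ranged from 0.625 CPM in French bulldog 6 through a median of 3.01 CPM to 6.74 CPM in French bulldog 11. The boxers had 5.01, 6.67, 3.72 and 7.56 CPM and the Boston terriers had 2.73, 4.01 and 4.39 CPM. The groups overlapped, and the log2 fold change was -0.42 (SE 0.34, adjusted p = 0.668, edgeR's quasi-likelihood test with Benjamini-Hochberg adjustment).

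NRG2, a neuregulin, had the smallest adjusted p-value of the 8 members in the filtered edgeR fit. The French bulldogs ranged from 0 CPM through a median of 5.31 CPM to 9.79 CPM. The boxers had 6.71, 10.5, 13.4 and 17.8 CPM, and the Boston terriers had 7.24, 21.9 and 7.62 CPM. All 11 French bulldogs lay below the median of the comparison group, 10.5 CPM, and 8 of them lay below every comparison library, but French bulldogs 2, 8 and 9 overlapped it. The log2 fold change was -1.20 (SE 0.53, 95% interval -2.31 to -0.091), with an unadjusted p-value of 0.0354 and an adjusted p-value of 0.447 (edgeR's quasi-likelihood test with Benjamini-Hochberg adjustment). Without French bulldog 6 it was -1.04 (95% interval -1.77 to -0.30, adjusted p = 0.371), and without French bulldogs 6 and 11 it was -0.91 (95% interval -1.50 to -0.32, adjusted p = 0.356). The adjusted p-value did not pass the threshold in any of these fits.

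NRG1, the neuregulin that signals through ERBB3 and ERBB4, was split within the French bulldogs. The levels were 0.0991, 0.204, 1.12, 1.78 and 2.50 CPM in French bulldogs 11, 8, 2, 1 and 6, 6.43 CPM in French bulldog 4, and 14.2 to 24.8 CPM in the other 5. The boxers had 15.5, 33.0, 21.6 and 16.1 CPM, and the Boston terriers had 23.7, 37.9 and 12.4 CPM. Of the 11 French bulldogs, 6 lay below every comparison library and the other 5 lay inside its range. The log2 fold change was -1.22 (SE 0.72, 95% interval -2.72 to 0.28, adjusted p = 0.544, edgeR's quasi-likelihood test with Benjamini-Hochberg adjustment). Counted as 1 sum, French bulldogs 2 and 8 gave -1.10 for NRG1 and -1.28 for NRG2.

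NRG3, the neuregulin that binds ERBB4, ranged in French bulldogs from 0 CPM in French bulldog 6 through a median of 10.2 CPM to 39.5 CPM in French bulldog 9. The comparison group ran from 9.69 through 17.9 to 22.7 CPM. The French bulldogs thus spanned a wider range on both sides, with 4 below and 2 above every comparison library. The log2 fold change was -0.23 (SE 0.56, adjusted p = 0.919, edgeR's quasi-likelihood test with Benjamini-Hochberg adjustment), and it was 0.026 without French bulldogs 6 and 11.

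**Figure D4:**
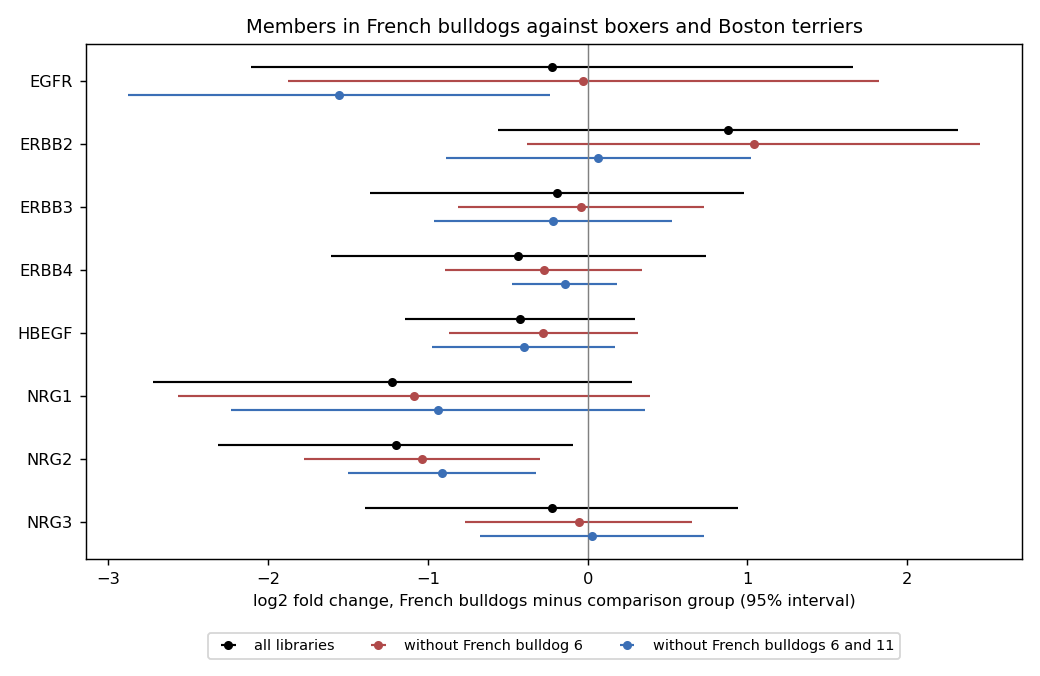
Log2 fold change of the 8 members tested, French bulldogs minus boxers and Boston terriers, with 95% intervals from edgeR, for all libraries (black), without French bulldog 6 (red) and without French bulldogs 6 and 11 (blue). All 3 intervals of NRG2 lie below 0; that of EGFR does so only without French bulldogs 6 and 11, at -2.88 to -0.24.

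Taking the members as a list, 0 of the 8 tested had an adjusted p-value under 0.05 in French bulldogs against the comparison group (edgeR's quasi-likelihood test), beside 0.00606% of the 16495 genes tested. At an unadjusted p-value under 0.05, 1 member (NRG2) was lower in French bulldogs and 0 were higher, beside 3.55% of all genes tested lower and 7.02% higher. The normalized levels of the groups overlapped in each of the 8, and 0.0546% of all genes tested did not overlap. The median log2 fold change was -0.32 over the 8 members and 0.035 over all genes tested. DESeq2 called 0 of the members and 58 of all genes, and limma-voom called 0 of the members and 2 of all genes.

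When the 3 breeds were fitted separately, EGF also passed the filter, and 0 of 9 members differed among the breeds at an adjusted p-value under 0.05 (0.00558% of 17934 genes did, edgeR). The unadjusted p-value was under 0.05 for 1 member, EGF, and for 1013 of all genes. The count called was likewise 0 of 9 in French bulldogs against boxers (0% of genes called), French bulldogs against Boston terriers (0.00558%) and boxers against Boston terriers (0%). At an unadjusted p-value under 0.05, these 3 contrasts held 0, 1 and 0 members and 1481, 689 and 381 of all genes. The contrasts share libraries and are not independent.

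Across breeds, EGFR was ordered from boxers (50.2 ± 59.7 CPM, SD, n = 4) through French bulldogs to Boston terriers (7.32 ± 2.50 CPM, SD, n = 3). Boxers exceeded Boston terriers by 2.77 on the log2 scale (95% interval -0.35 to 5.90), and by 1.51 without boxer 1. French bulldogs against boxers stood at -0.89 (95% interval -2.95 to 1.17) and against Boston terriers at 1.88 (95% interval -0.87 to 4.64), so no neighbours in this order differed beyond their spread. The value against boxers was 0.38 without boxer 1 and -2.39 without French bulldog 11, and that against Boston terriers was 0.38 without French bulldog 11. EGF was ordered from Boston terriers (2.49 ± 1.79 CPM, SD, n = 3) through boxers (0.736 ± 0.280 CPM, SD, n = 4) to French bulldogs (0.375 ± 0.390 CPM, SD, n = 11). French bulldogs were lower in EGF than Boston terriers by a log2 fold change of -2.67 (95% interval -4.31 to -1.03), with an unadjusted p-value of 0.00309 and an adjusted p-value of 0.983 (edgeR's quasi-likelihood test, Benjamini-Hochberg adjustment). Boston terrier 6 had 54 EGF counts, and the value without it was -1.92.

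NRG1 had means of 24.7 ± 12.8, 21.5 ± 8.10 and 9.79 ± 9.41 CPM in Boston terriers, boxers and French bulldogs (SD, n = 3, 4 and 11). NRG2 had 12.3 ± 8.36, 12.1 ± 4.70 and 5.29 ± 3.02 CPM in the same order. For both, boxers and Boston terriers were within 1 SD of each other, with log2 fold changes of -0.20 and -0.019. For ERBB2, ERBB3, ERBB4, HBEGF and NRG3, neighbouring breeds in the order of the means also did not differ beyond the spread between libraries, the largest log2 fold change among these being 0.78 for ERBB2 in French bulldogs over Boston terriers (95% interval -1.26 to 2.82).

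The pathway around the members was read from 73 listed genes in 6 groups, of which 65 were in the table and 61 were tested. None passed an adjusted p-value of 0.05 in French bulldogs against the comparison group. At an unadjusted p-value under 0.05, 5 were higher and 0 were lower, beside 7.02% and 3.55% of all genes tested, and the median log2 fold change was 0.10. The counts were 5 higher and 1 lower without French bulldog 6, and 6 higher and 2 lower without French bulldogs 6 and 11, beside 10.8% and 11.3% of all genes past that threshold in either direction. Of the other ERBB ligands, 0 of 2 tested passed even the unadjusted threshold. The counts were 2 of 6 for the proteases and rhomboid proteins of ligand shedding (ADAM10 and RHBDF2), 1 of 17 for receptor adaptors and inhibitors (SOS2) and 1 of 11 for the RAS-ERK arm. They were 0 of 13 for the PI3K-AKT, PLC and STAT arm and 1 of 12 for transcripts induced by ERK (CCND1). Leaving out the highest French bulldog library of each gene, a setting chosen after seeing the data, changed some of these. It lowers the French bulldog mean by design, so a smaller fold change without that library was fixed in advance. RHBDF2 was at 137 CPM in French bulldog 6 against a median of 3.85 CPM in French bulldogs, and without that library its log2 fold change was -0.063. CCND1 was at 1112 CPM in French bulldog 1 against a median of 65.5 CPM, and without that library its unadjusted p-value was 0.147 (edgeR's quasi-likelihood test). That of SOS2 was 0.0779 without French bulldog 2, the highest for that gene. The unadjusted p-value of ADAM10 was 0.0311 without French bulldog 11 by the same test. That of the gene counted in the RAS-ERK arm also stayed under 0.05.

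The members were then compared with each other across the 18 libraries, as log2 CPM over 28 pairs. The neuregulins NRG1 and NRG3 varied together, with a Spearman's rho of 0.75 (p = 0.00045, adjusted p = 0.0126, permutation test with 100000 pairings, two-sided). Pearson's r was 0.45 (p = 0.0767, adjusted p = 0.153, permutation test), and it was 0.56 without French bulldogs 8 and 11, the libraries farthest from the median of NRG1. Spearman's rho was 0.71 within French bulldogs (n = 11) and 0.64 within the comparison group (n = 7), and 0.74 without French bulldog 6. In French bulldogs alone its adjusted p-value was 0.257 by the permutation test. Without French bulldogs 6 and 11 it was 0.68, and its adjusted p-value, 0.123 by the permutation test, was over the threshold, as it was without French bulldog 8 (0.0507) or 11 (0.0504) alone. It was the only pair with an adjusted p-value under 0.05 for rho.

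EGFR and HBEGF, receptor and ligand, had a rho of 0.65 (p = 0.00468, adjusted p = 0.0655, permutation test) and an r of 0.64 (p = 0.00651, adjusted p = 0.0608, permutation test). Their r was 0.69 without French bulldog 11 and boxer 1, the libraries farthest from the median of EGFR, and rho was 0.64 within French bulldogs and 0.68 within the comparison group. EGFR and ERBB2, both high in French bulldog 11, had a rho of 0.22 (p = 0.379, adjusted p = 0.758, permutation test) and an r of 0.52 (p = 0.031, adjusted p = 0.112, permutation test). That r fell to 0.18 without French bulldog 11 and boxer 1, so it rested on those libraries. By Pearson's r, NRG2 with NRG3 (0.86, adjusted p = 0.0148, permutation test) and NRG2 with ERBB4 (0.90, adjusted p = 0.02, permutation test) also passed, and their r without French bulldogs 6 and 11 was 0.42 and 0.03. The relation of NRG2 with ERBB4 therefore rested on those 2 libraries.

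**Figure D5:**
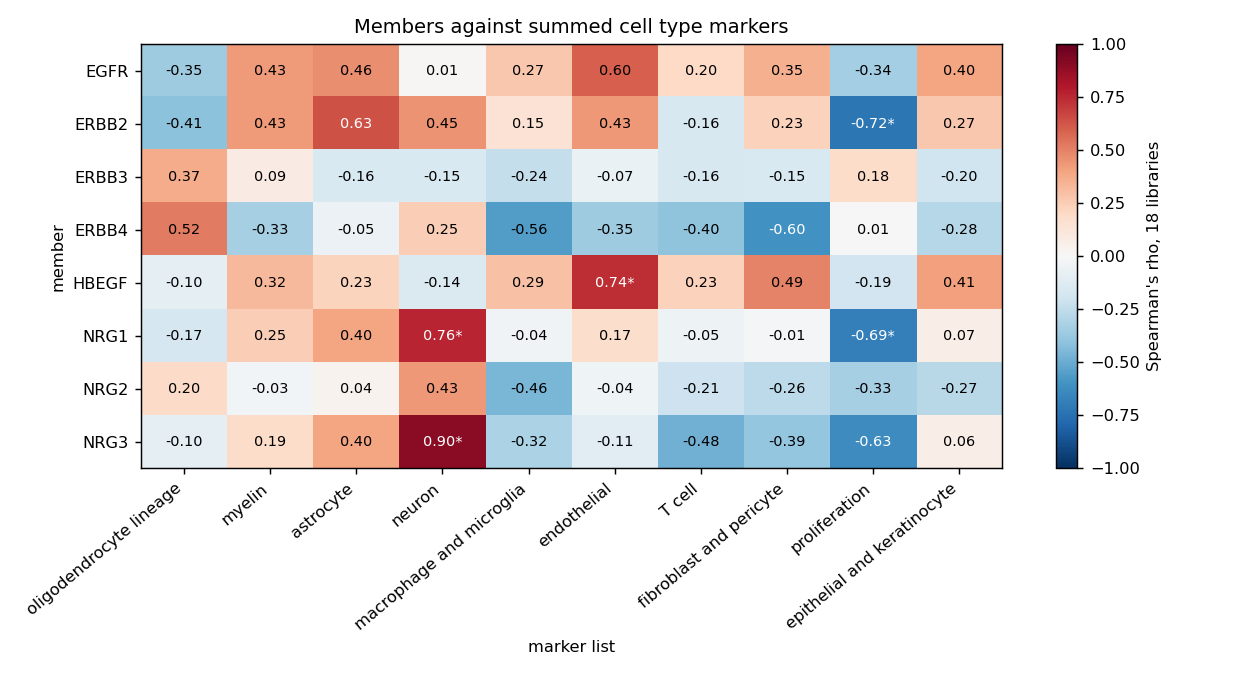
Spearman's rho over 18 libraries between the log2 CPM of each of 8 members (rows) and the log2 summed CPM of 10 cell type marker lists (columns), from -1 (blue) to 1 (red); an asterisk marks an adjusted p-value under 0.05 over 80 relations. The cells marked are NRG3 and NRG1 with neuron markers, HBEGF with endothelial markers, and ERBB2 and NRG1 with proliferation genes.

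Cell type marker sums moved with several members. Of 80 relations between 8 members and 10 marker lists, 5 had an adjusted p-value under 0.05 by a two-sided permutation test on Spearman's rho, 3 of them positive. NRG3 with neuron markers had a rho of 0.90 (p = 1e-05, the smallest that these permutations can give, adjusted p = 0.0008) and an r of 0.87 (permutation p = 1e-05, adjusted p = 0.0008). The r was 0.86 without French bulldogs 6 and 9, the libraries farthest from the median of NRG3, and rho was 0.89 within French bulldogs and 0.68 within the comparison group. In French bulldogs alone the adjusted p-value was 0.0379 by the permutation test, and the comparison group alone was not tested.

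NRG1 with neuron markers had a rho of 0.76 (p = 0.00034, adjusted p = 0.0136, permutation test) and an r of 0.65 (p = 0.00331, adjusted p = 0.0294, permutation test). The r was 0.70 without French bulldogs 8 and 11, and rho was 0.84 within French bulldogs (adjusted p = 0.0398, permutation test) and 0.57 within the comparison group. The neuron marker sum had a median of 159 CPM in French bulldogs, with a range of 5.94 to 1536 CPM, and a median of 307 CPM in the comparison group, with a range of 97.1 to 1260 CPM. The part of neuron content in the breed values of NRG1 was not tested. NRG2 had a rho of 0.43 with neuron markers (adjusted p = 0.311, permutation test) and an r of 0.72 (p = 0.00176, adjusted p = 0.0192, permutation test), which fell to 0.29 without French bulldogs 6 and 11.

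HBEGF with endothelial markers had a rho of 0.74 (p = 0.00078, adjusted p = 0.0208, permutation test) and an r of 0.57 (p = 0.0139, adjusted p = 0.0618, permutation test). The r was 0.71 without French bulldog 6 and boxer 5, and rho was 0.51 within French bulldogs and 0.68 within the comparison group. In French bulldogs alone its adjusted p-value was 0.382 by the permutation test. HBEGF with fibroblast and pericyte markers had a rho of 0.49 over all libraries (adjusted p = 0.267, permutation test) but 0.77 without French bulldog 6 (adjusted p = 0.0163, permutation test), where that with endothelial markers was 0.75 (adjusted p = 0.0163, permutation test). ERBB2 and NRG1 were negatively related to the proliferation genes, near the threshold. For ERBB2 rho was -0.72 (p = 0.00129, adjusted p = 0.0258, permutation test) and r was -0.74 (p = 0.00026, adjusted p = 0.00827, permutation test), with an r of -0.77 without French bulldogs 2 and 11 and a rho of -0.76 and -0.43 within French bulldogs and the comparison group. For NRG1 rho was -0.69 (p = 0.00207, adjusted p = 0.0331, permutation test) and r was -0.54 (p = 0.0211, adjusted p = 0.0791, permutation test), with an r of -0.83 without French bulldogs 8 and 11 and a rho of -0.56 and -0.75 within the groups. The adjusted p-value of rho by the permutation test was over the threshold for both without French bulldog 6 (0.0593) and with French bulldogs 2 and 8, which share a case number, summed (0.0702 for ERBB2 and 0.0845 for NRG1). In French bulldogs alone it was 0.135 for ERBB2 and 0.31 for NRG1. It was also over the threshold without any 1 of French bulldogs 2, 7, 8 and 9 for ERBB2 (0.051 to 0.0702), and without any 1 of French bulldogs 1, 2, 4, 5, 8 and 9, boxers 3 and 5 and Boston terriers 6 and 7 for NRG1 (0.0531 to 0.0857). With 1 library left out, rho for NRG1 ran from -0.86 (adjusted p = 0.0016, permutation test), without French bulldog 11, to -0.64. Without French bulldogs 6 and 11 the adjusted p-value was 0.0786 for ERBB2 and 0.0044 for NRG1 by the permutation test.

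ERBB4 with oligodendrocyte lineage markers had an r of 0.93 (p from the permutation test adjusted to 0.00827) but a rho of 0.52 (adjusted p = 0.216, permutation test), and r was 0.40 without French bulldogs 6 and 11. Its rho was 0.86 within French bulldogs and 0.036 within the comparison group, a difference that was not tested. ERBB3 with the same markers had a rho of 0.37 (adjusted p = 0.359, permutation test) and an r of 0.85 (adjusted p = 0.0741, permutation test) that fell to 0.028 without French bulldog 6 and boxer 3. Both receptors were thus lowest where lineage markers were lowest, in French bulldog 6, and their relation to the markers over the other libraries did not pass the threshold.

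The genes whose pattern over the 18 libraries was most like each member were found by Spearman's rho among 11576 tested genes with a symbol. For EGFR these were GLI3, EPS8L2 and NKX6-1, with a rho of 0.85, 0.84 and 0.79. For ERBB2 they were SMARCA2, INPP5A and TRABD2B, with 0.87, 0.83 and 0.83. For ERBB3 they were FGFR1, MPPED2 and COL9A3, with 0.90, 0.83 and 0.82, and for ERBB4 STOX2, PLPP4 and TSHZ1, with 0.86, 0.85 and 0.84. The receptors thus shared none of their 3 most alike genes.

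For HBEGF the most alike genes were TMEM204, ADGRA2 and ROBO4, with a rho of 0.88, 0.85 and 0.85. ADGRA2 and ROBO4 are genes of blood vessels. For NRG1 they were ELAVL3, ATN1 and CPEB3, with 0.93, 0.88 and 0.88, of which ELAVL3 encodes a neuronal RNA-binding protein. For NRG2 they were PSD2, PTPRU and STRN4, with 0.93, 0.92 and 0.89, and for NRG3 GNAZ and PRRT1, with 0.95 and 0.94. Without French bulldogs 6 and 11 rho stayed at 0.75 or more for each of the genes named, the lowest being NKX6-1 with EGFR. These values describe likeness over 18 libraries that share their depth and tissue content, and the genes were picked as the highest of many.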

How the data were processed

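Per the labels, RNA was extracted from scrolls, and ribosomal RNA was removed with a stranded total RNA kit. The authors trimmed paired-end reads (Trimmomatic 0.33), mapped them with HISAT2 2.1.0 to the dog genome and deposited raw counts per gene from featureCounts, without normalization. Strand and multi-mapping settings are not given in the sources used here. EGFR, ERBB4, EGF, NRG1, NRG2 and NRG3 overlap non-coding genes in RefSeq (UU_Cfam_GSD_1.0), so some of their reads could be shared.

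Groups came from the breed labels. Some comparison libraries carry library numbers that no French bulldog has, and the others repeat French bulldog numbers. Both were taken as series apart from that of the French bulldogs, which the labels do not state. Taken so, series and breed cannot be told apart, and p-values measure the spread between these libraries. Counts were tested mainly with the quasi-likelihood F test of edgeR 4.0.16 (R 4.3.3; TMM, filterByExpr, robust, two-sided) with Benjamini-Hochberg adjustment and a threshold of 0.05. The standard error was the log2 fold change over the square root of F. Normalized CPM used TMM sizes, and log2 CPM a prior count of 2. Marker sums were logged after adding 1. Alternatives used DESeq2 1.42.0, limma 3.58.1 and other scalings, filters and library sets. Tests were checked on simulated data: of 200 genes changed 2-, 4- or 8-fold between 11 and 7 libraries, 15.5%, 75.5% and 92% were recovered.

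Named genes were all members, pathway genes with an adjusted p-value under 0.05 or otherwise an unadjusted p-value under 0.01, the 3 genes most alike to each member, and marker genes at 0 counts. Some genes that this rule selects are not reported here. ADAM10, RHBDF2, SOS2, CCND1 and the neighbours of EGFR and ERBB2 were named after their values were seen. Members and lists were chosen with earlier results of these data known. Levels were not compared between genes, as no transcript lengths were used here. The limits of 3 counts cover counting error only. Plots were made with Python 3.11.15 and matplotlib 3.10.9.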

Additional observations from a re-analysis of the deposited data

Results flagged for a closer look

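By Dixon's test on normalized CPM, the highest library stood apart from the 7 comparison libraries for 2 members. For EGFR it was boxer 1, whose gap to the next library was 0.758 of the group's range. For EGF it was Boston terrier 6, with a gap of 0.652 of the range. Of the 18 groups of values examined (9 members in the boxers and in the comparison group), chance marks about 1 in 20, and French bulldogs are too many for this test.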

How the results depend on the processing

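The number of members called stayed 0 in all 5 comparisons under each of the 125 counts made under other settings. The lowest adjusted p-values of any member were 0.188 for EGF and 0.190 for EGFR, both with DESeq2. The French bulldog contrast kept its direction for ERBB4, HBEGF, NRG1 and NRG2 under every setting run (31 each), over log2 fold changes of -1.23 to -0.14, -0.55 to -0.28, -2.42 to -0.94 and -1.70 to -0.84. It reversed for ERBB2 with limma-voom (-0.12) and with the replicate block (-0.46), for ERBB3 against 4 comparison libraries of one number series (0.20), for EGFR against the other 3 (1.55), and for NRG3 without French bulldogs 6 and 11 (0.026), which was chosen after seeing the data. Against the same 4 and 3 libraries NRG2 was at -0.84 and -1.56 and NRG1 at -1.26 and -1.14. Leaving out 1 library at a time gave -1.73 to 0.95 for EGFR (lowest without French bulldog 11, highest without boxer 1), -0.070 to 1.04 for ERBB2 (lowest without French bulldog 11) and -0.37 to 0.056 for ERBB3 (highest without Boston terrier 7).

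The same numbers in the labels did not mark shared animals, and deviations of same-numbered libraries did not correlate throughout (over 0.1 for 3 of 7 numbers), so the replicate block is given here only: it called 0 members and 0 genes, and 2 of 7 libraries correlated best with their own number. Without French bulldogs 6 and 11, ERBB2 and NRG3 reversed in French bulldogs against Boston terriers (-0.028 and 0.086), as did the receptor share differences of EGFR (-5.29 percentage points) and ERBB4 (2.67). NRG2 in boxers against Boston terriers turned to 0.38 with library series as a term. One library left out gave, against Boston terriers, -0.21 to 0.11 for HBEGF, -0.16 to 0.97 for ERBB2 and -0.44 to 0.056 for NRG3. Against boxers it gave -2.39 to 0.38 for EGFR and -0.095 to 0.87 for ERBB3. Between boxers and Boston terriers it gave -0.29 to 0.70 for NRG2, -0.31 to 0.025 for ERBB2, -0.22 to 0.083 for ERBB4, -0.18 to 0.32 for NRG3 and -0.52 to 0.25 for NRG1. For shares it gave -1.78 to 5.87 points for EGFR and -2.06 to 5.72 points for ERBB3, while ERBB2 went from 4.38 to 1.49 without French bulldog 6 and ERBB4 from -7.05 to -2.44 without French bulldog 11.

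Of all genes, 1 was called in the main contrast. The count was 2 with upper quartile factors, 2 with limma-voom, 58 with DESeq2, 5 without French bulldogs 6 and 11, and 0 with 10 counts required in every library (where EGFR was the only member left), with French bulldogs 2 and 8 summed, against each number series and with the block. With 1 library left out it was 0 to 7, at 7, 3, 2 and 2 without French bulldogs 9, 6 and 10 and boxer 5, 1 without French bulldogs 4 or 5, and 0 otherwise. Among 3 breeds it moved from 1 to 0 (2 and 8 summed), 2 (without 6 and 11), 45 (DESeq2) and 0 to 2 (1 left out). Against boxers it was 4, 23 and 0 to 2 in place of 0, and against Boston terriers 2, 8 and 0 to 2 in place of 1, without 6 and 11, with DESeq2 and with 1 left out. Member pairs numbered 2 with Pearson, 4 with DESeq2 size factors, 0 in French bulldogs alone, 0 without 6 and 11 and 0 to 3 with 1 left out (0 without French bulldog 8 or 11). Marker relations numbered 10 with Pearson, 3 with 2 and 8 summed (both relations with proliferation genes were lost) and 3 to 7 with 1 left out (3 without French bulldog 8 or 9). NRG3 and NRG1 with neuron markers passed the threshold in every setting run. The cause of these changes was not tested, and neither was the part of the EGFR count that DESeq2 replaced. EGF had 17 counts or fewer in every French bulldog.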
